A study of Mus musculus with 4 samples.

Results

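Zeb1 represses its targets together with corepressors, and the 10 genes described here encode such partners and the enzymes they bring to chromatin: the deacetylases Hdac1, Hdac2, Hdac3 and Sirt1, the bridging corepressors Ctbp1, Ctbp2 and Rcor1, the demethylase Kdm1a, the methyltransferase Ehmt2 and the chromatin remodeller Smarca4. They were chosen by name, out of 21000 protein-coding genes of the RefSeq annotation, and a gene counted as having a peak when at least 1 peak of the unified Zeb1 peak list carried its symbol. The list held 17435 peaks, and 10 of these peaks were assigned to 8 of the 10 genes. Hdac3 and Sirt1 had no assigned peak.

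The data are Zeb1 ChIP-seq, the sequencing of DNA fragments recovered with an antibody to Zeb1, in mESC of the D3 line, an established mouse embryonic stem cell line, at passages p5-p8. The cells were grown in GS, which is N2B27 medium with 1 μM PD0325901 (a MEK inhibitor), 3 μM CHIR99021 (a GSK-3 inhibitor) and 20 ng/mL LIF. Chromatin was fixed with 1% formaldehyde and sheared to fragments of about 200 bp, and 8 μg of a Zeb1 antibody was used to make 3 Zeb1 ChIP libraries, beside 1 input library without that step. All libraries come from this 1 condition. For each peak the list gives the authors' mean of the treatment reads, their mean of the input reads and their mean enrichment, which is the ratio of treatment to input normalized for mapped reads. This enrichment is not the plain ratio of the printed mean reads. The methods state that reads were counted again in each unified peak, scaled to a common depth and averaged over samples. Within 0.01, the treatment reads were whole numbers in 5043 of 17435 peaks and became whole when multiplied by 3 in 5600, and the input reads were not whole in 11248 peaks. The number of values behind each mean is not given in the list, so reads and enrichment are given, and ordered, as deposited. The list gives no value per library, so no SD or test accompanies the values, and genes that lie next to each other in an order of enrichment cannot be told apart by replicate spread. The list holds no expression values, so the identity of the cells was not checked with markers here.

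Zeb1 is a zinc finger factor that binds E-box sequences and is best known for repressing epithelial genes. It recruits CtBP proteins through short peptide motifs, and CtBP in turn brings deacetylases, the CoREST scaffold with the demethylase LSD1, and histone methyltransferases to the bound site. These enzymes remove acetyl groups and active methyl marks from histone H3, or add repressive ones. Embryonic stem cells express many of them at high levels, and several are needed for normal silencing of genes during differentiation.

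A Zeb1 peak lay within 5 kb of the transcription start site (TSS) of all 8 genes with an assigned peak, so 8 of 10 had a TSS peak by the list. Over all RefSeq genes, 53.3% had an assigned peak and 45.1% had a peak centred within 5 kb of the TSS. When every reference TSS was used in place of the gene named in the list, Hdac3 joined them and 9 of the 10 genes had a peak centre within 5 kb, against 51.5% of all genes. The same 9 genes had a TSS inside a peak, against 47.7% of all genes. Sirt1 was the 1 gene without a peak by each of these counts.

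The TSS peaks were searched on both strands for the Zeb1 motif in its forms CNCACCTG, CNTACCTG, TNCACCTG and TNTACCTG, where N is any base. The matches nearest to the peak centre are given for the TSS peaks of 6 genes and for the intronic peak of Kdm1a. They lay from 1 bp (Smarca4) to 1112 bp (Ctbp1) from the centre of the peak. Whether Zeb1 was bound at these matches was not tested. Each line holds 30 bases of GRCm38.p6, read 5′ to 3′ on the strand of the match, with the match in capitals.
Hdac2, chr10:36973913-36973942, reverse strand: ttcccagcatcCATACCTGctcgtaataaa
Ctbp1, chr5:33275773-33275802, reverse strand: aggtttgagacTCCACCTGttagatctttt
Rcor1, chr12:111039508-111039537, forward strand: ccggcccggcgCCCACCTGcgccccctgcc
Kdm1a, TSS peak, chr4:136602063-136602092, reverse strand: cgacgcgtttgTCTACCTGtgtgtctgatg
Kdm1a, intronic peak, chr4:136587570-136587599, forward strand: tggccccacccCTCACCTGggcatcctggg
Ehmt2, chr17:34899903-34899932, reverse strand: acttccacactCTCACCTGtccgttgctag
Smarca4, chr9:21616387-21616416, reverse strand: agcctccattcCTTACCTGgaggtaacggc

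All 8 TSS peaks held at least 1 match, with 14 matches in total. Over all 17435 peaks, 76.8% held a match, and over the 11738 peaks with lengths from 1550 to 3800 bp, the range of the members' TSS peaks, 79.8% did. The median was 0.693 matches per kb in the members' TSS peaks, 0.645 per kb in peaks of that length range and 0.714 per kb in all peaks. Few of the matches lay at the middle of a peak. Within 200 bp at the peak centre, 2 of the 8 TSS peaks held a match, those of Ctbp2 and Smarca4, against 16.7% of all peaks. The Ctbp2 match, CTCACCTG, lay at chr7:133123085-133123092 in intron 1, on the reverse strand, 12 bp from the centre, and the Smarca4 match lay 1 bp from it. The matches of Smarca4 and Ehmt2 also covered a junction between an exon and the following intron. That was so for 2 of the 14 matches in the members' TSS peaks, and for 17.3% of the 19007 matches in all peaks within 5 kb of a TSS.

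By enrichment, the deacetylases had the lowest TSS peaks among the 10 genes, or none. Hdac1 and Hdac2 are the class I deacetylases of the NuRD, Sin3 and CoREST complexes. The Hdac1 peak at chr4:129541851-129543400 was centred in coding exon 1, 21 bp downstream of the TSS. The authors' means were 45.5 treatment reads against 17 in the input, for an enrichment of 5.45, and 25.1% of the best TSS peaks of all genes were lower. Beyond the other end of Hdac1, 453 bp past its last base, a peak assigned to Marcksl1 had 93.2 treatment reads against 21.8 in the input, for an enrichment of 9.36. The Hdac2 peak at chr10:36973551-36975650 was centred in the 5′ UTR of exon 1, 56 bp downstream of the TSS, with 58.8 treatment reads against 23 in the input, for an enrichment of 5.58. Both values lay under 6.84, the median enrichment of the best TSS peaks of 9461 genes.

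Hdac2 had a further peak far from the gene, at chr10:36814351-36815450. It lay 159093 bp before the start of Hdac2, in an intron of Hs3st5, a heparan sulfate sulfotransferase gene, and the list places it in a LINE element of the L1Md_T type. This peak had 24.5 treatment reads against 11 in the input, for an enrichment of 4.95, and no motif match. Only 3.96% of all peaks had fewer treatment reads.

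Hdac3 is the catalytic subunit of the NCoR and SMRT complexes. Its TSS lay inside a peak at chr18:37954301-37956900 that the list assigns to Rell2, a gene on the opposite strand whose TSS is 571 bp away. The peak reached 687 bp into Hdac3 and 1912 bp upstream of its TSS, and its centre lay in the 5′ UTR of Rell2, so the 1-gene-per-peak assignment left Hdac3 without a row. It had 88 treatment reads against 26 in the input, for an enrichment of 6.83, above Hdac1 and Hdac2 and close to the median of all genes. The detailed annotation of the list names the Hdac3 transcript for this peak. Such a loss was not particular to Hdac3: of 10025 genes with a TSS inside a peak, 856 or 8.54% had no assigned peak. At the far end of Hdac3, 770 bp past the gene, a peak with an enrichment of 8.34 covered the start of the formin gene Diaph1, which the list calls Diap1.

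Sirt1, an NAD-dependent deacetylase, was the gene without a peak. No peak lay in it or within 5 kb of it. The nearest peaks were 74104 bp beyond its 3′ end, at the TSS of Herc4 with an enrichment of 8.79, and 89865 bp upstream, near the TSS of Ctnna3 with an enrichment of 13.7. Sirt1 thus lay in a stretch of 184000 bp without a peak. The median gap between neighbouring peaks was 52500 bp, and 3714 of 17414 gaps were at least as long as the one around Sirt1.

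**Figure D1:**
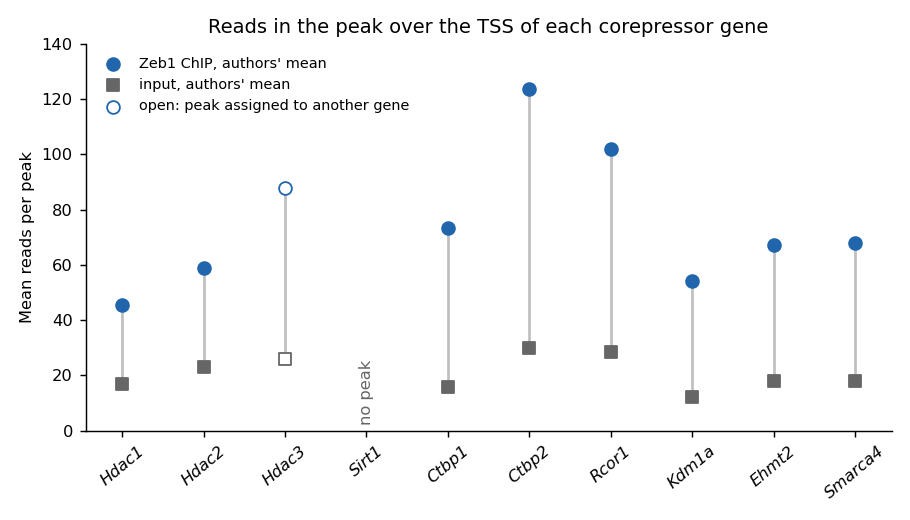
Mean reads per peak (y axis) in the peak that covers the TSS of each gene (x axis), with circles for Zeb1 ChIP and squares for input, as the authors averaged them. Treatment reads ran from 45.5 at Hdac1 to 123.6 at Ctbp2, open symbols mark the Hdac3 peak that is assigned to Rell2, and Sirt1 had no peak.

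Among the 8 assigned TSS peaks, those of the bridging corepressors had the most treatment reads. Ctbp1 and Ctbp2 bind directly to Zeb1, and Rcor1 (CoREST) is the scaffold that holds Kdm1a and the deacetylases together. The Ctbp1 peak at chr5:33273451-33275900 was centred in intron 1, 329 bp downstream of the TSS. With 73.3 treatment reads against 15.7 in the input, its enrichment was 9.83, the highest of the 10 genes, and 84.7% of the best TSS peaks of all genes were lower.

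The Ctbp2 peak at chr7:133121201-133125000 was the longest of the members' TSS peaks, at 3800 bp, and was centred in intron 1. It had 123.6 treatment reads, more than 96.7% of all peaks, against 30 in the input, for an enrichment of 8.58. Ctbp2 has 3 reference TSSs, and the peak covered the one farthest upstream. At the other 2, which lie inside the gene, the nearest peak centre was 41240 bp and 83897 bp away. The innermost TSS, at chr7:133015247, starts the transcript with the longest coding sequence, and it was in no peak.

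The Rcor1 peak at chr12:111037701-111040750 had 101.9 treatment reads against 28.6 in the input, for an enrichment of 7.19. The list gives its centre a distance of -573 bp from the TSS, and from the reference TSS the distance was -142 bp. It reached 1666 bp upstream of that TSS and 1383 bp into the gene, and it held 3 motif matches, 1 of them in the 5′ UTR and 2 in an intron.

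Kdm1a, also called LSD1, removes methyl groups from lysine 4 of histone H3. Its TSS peak at chr4:136601451-136603400 was centred in coding exon 1, 298 bp downstream of the TSS, with 54.2 treatment reads against 12.2 in the input, for an enrichment of 9.58. That input value was the lowest among the members' TSS peaks. A further peak lay inside the gene, at chr4:136586901-136588100 in intron 2, 15223 bp downstream of the TSS, where the list names a repeat of the RMER1B type. This intronic peak had 24 treatment reads against 9 in the input, for an enrichment of 5.25, near the lowest treatment value in the list, which was 20.

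Ehmt2, known as G9a, adds methyl groups to lysine 9 of histone H3. Its peak at chr17:34897601-34900350 covered both of its reference TSSs and was centred 5 bp downstream of the one at chr17:34898970. It had 67.3 treatment reads against 17.9 in the input, for an enrichment of 8.09. Ehmt2 is a short gene of 15600 bp in a crowded region, and 3 further peaks near it were assigned to its neighbours. A peak with an enrichment of 7.54 lay over the zinc finger gene Zbtb12 upstream. A peak at chr17:34904801-34909500 inside Ehmt2, with 80.6 treatment reads against 20.6 in the input, for an enrichment of 7.49, was assigned to the transporter gene Slc44a4, as was one across the 3′ end of Ehmt2 with an enrichment of 4.0. For the peak inside Ehmt2, the list gives a distance of -7316 bp from the Slc44a4 TSS. Its annotation there is a promoter of the same Ensembl gene as that of the Ehmt2 TSS peak.

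Smarca4, or BRG1, is an ATPase of the SWI/SNF remodelling complexes. Its TSS peak at chr9:21615051-21617750 was centred in the 5′ UTR of exon 1, 231 bp downstream of the TSS, and had 68 treatment reads against 17.9 in the input, for an enrichment of 9.01.

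**Figure D2:**
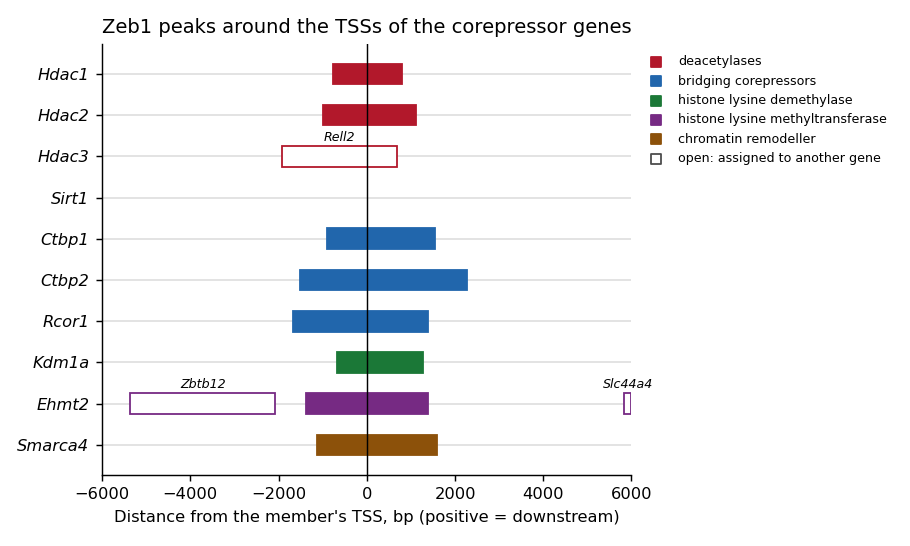
Extent of each Zeb1 peak around the TSS of each gene (x axis, distance in bp from the TSS nearest the gene's own TSS peak, positive downstream), coloured by the role of the gene. Every filled bar crosses the TSS, open bars are peaks assigned to the neighbour written above them, and the row of Sirt1 is empty.

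Besides Rell2 at Hdac3, other genes started within 5 kb of a member's TSS peak at 3 loci, and none of those starts lay inside the peak. The start of Zbtb12 was 3042 bp from the Ehmt2 peak, that of Mir1946b, a microRNA gene, 1475 bp from the Smarca4 peak, and that of the non-coding 4930483O08Rik 3251 bp from the Ctbp2 peak.

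The order by enrichment was Ctbp1, Kdm1a, Smarca4, Ctbp2, Ehmt2, Rcor1, Hdac2 and Hdac1. The 8 best TSS peaks had a median enrichment of 8.33, from 5.45 to 9.83, beside a median of 6.84 and quartiles of 5.44 and 8.66 over all genes. Of the 8, 6 lay above the median of all genes and 3 above the upper quartile, which were Ctbp1, Kdm1a and Smarca4. Hdac1 and Hdac2 were the pair below the median. The order depended on the measure. By treatment reads per kb, which corrects for the length of a peak, Rcor1 came first with 33.4 and Ehmt2 last with 24.5, and Hdac1 with 29.4 came before Kdm1a with 27.8. Input reads per kb differed more, with 10.97 at Hdac1, 10.95 at Hdac2 and 6.26 at Kdm1a. By the plain ratio of mean treatment to mean input reads, Hdac1 with 2.68 and Hdac2 with 2.56 were again the lowest, and Ctbp1 with 4.68 the highest. The deposited enrichment was larger than this ratio in all 8 genes, by a factor from 2.02 at Rcor1 to 2.37 at Smarca4.

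**Figure D3:**
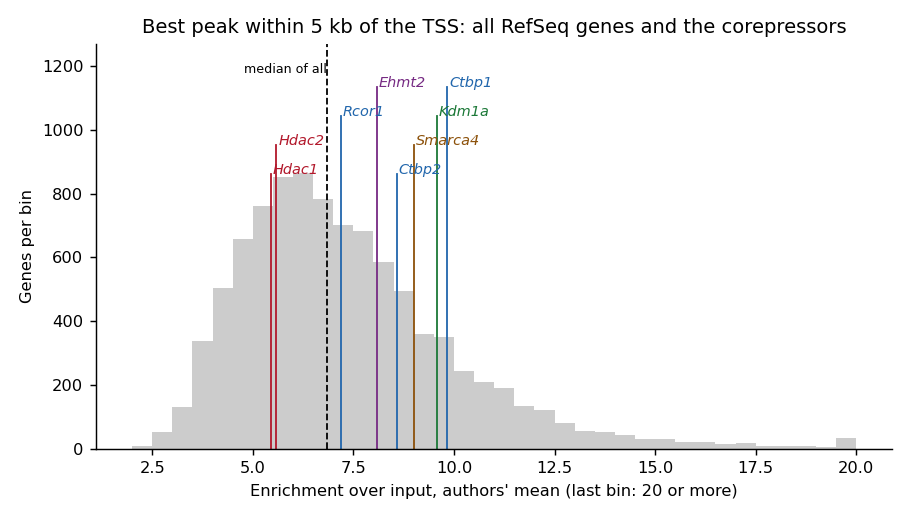
Number of genes (y axis) by the enrichment over input of their best peak within 5 kb of the TSS (x axis), for 9461 RefSeq genes, with a line for each of the 8 corepressor genes and a dashed line at the median of 6.84. Hdac1 and Hdac2 stand left of the dashed line and the other 6 genes right of it.

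The CpG content of the gene starts was not used to choose the genes. The RefSeq table of start windows, with 250 bases before and 50 after the TSS on GRCm38.p6, held 8 of the 10 genes, without Hdac1 and Hdac3. A window was called CpG-rich when its GC content was above 50% and its ratio of observed to expected CpG above 0.6, limits set after the data were seen. Of the 8 genes, 7 had a CpG-rich window, against 49.4% of 16853 genes with a window, and 6 of these 7 had a TSS inside a peak. Over all genes, 77.1% of those with a CpG-rich window had a TSS inside a peak and 18.9% of the others did. Against the first share, 6 of 7 is near the background. The Sirt1 window had a GC content of 79.0% and 47 CpG dinucleotides, the highest number among these genes, and an observed to expected ratio of 1.09, beside a median ratio of 0.813 over genes with a TSS inside a peak. Ctbp2 was the gene without a CpG-rich window, and its 2 windows, at the TSSs without a peak, held 8 and 3 CpG dinucleotides. The Ctbp2 TSS inside a peak had no window, so its CpG content was not assessed in this way. The peak over that TSS had a GC content of 64.4%, and its detailed annotation in the list is CpG.

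The 250 bases before the TSS are shown for a gene with high enrichment (Kdm1a), a gene with low enrichment (Hdac2) and the gene without a peak (Sirt1), with each CpG dinucleotide in capitals, from the RefSeq table of GRCm38.p6 and on the strand of the gene.
Kdm1a, chr4:136602724-136602973, reverse strand: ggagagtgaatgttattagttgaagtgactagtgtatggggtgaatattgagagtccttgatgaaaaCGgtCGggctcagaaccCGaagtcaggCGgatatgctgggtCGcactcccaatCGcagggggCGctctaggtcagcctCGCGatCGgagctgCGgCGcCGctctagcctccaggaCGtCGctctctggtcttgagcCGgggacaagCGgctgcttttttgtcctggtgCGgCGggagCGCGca
Hdac2, chr10:36974294-36974543, forward strand: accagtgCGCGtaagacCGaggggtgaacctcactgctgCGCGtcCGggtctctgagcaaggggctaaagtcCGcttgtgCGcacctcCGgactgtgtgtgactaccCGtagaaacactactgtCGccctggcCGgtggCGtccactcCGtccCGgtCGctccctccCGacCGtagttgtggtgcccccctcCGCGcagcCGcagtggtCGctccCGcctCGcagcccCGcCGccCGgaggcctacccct
Sirt1, chr10:63339036-63339285, reverse strand: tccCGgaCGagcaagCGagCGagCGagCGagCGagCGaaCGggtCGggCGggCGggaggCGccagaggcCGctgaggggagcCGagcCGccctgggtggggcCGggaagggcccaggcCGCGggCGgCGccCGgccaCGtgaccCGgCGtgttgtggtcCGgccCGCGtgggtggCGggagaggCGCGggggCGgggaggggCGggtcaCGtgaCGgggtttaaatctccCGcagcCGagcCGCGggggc
The stretch held 21 CpG dinucleotides at Kdm1a, 27 at Hdac2 and 39 at Sirt1. None of the 3 held a match to the Zeb1 motif, which was present in 13.1% of such windows of 250 bases over 16853 genes. In a wider window of 2601 bp centred on the TSS, Sirt1 had 2 matches, Hdac2 and Kdm1a had 3 each, and 84.2% of all genes had at least 1. The share was 84.2% both for genes with a TSS inside a peak and for genes without.

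**Figure D4:**
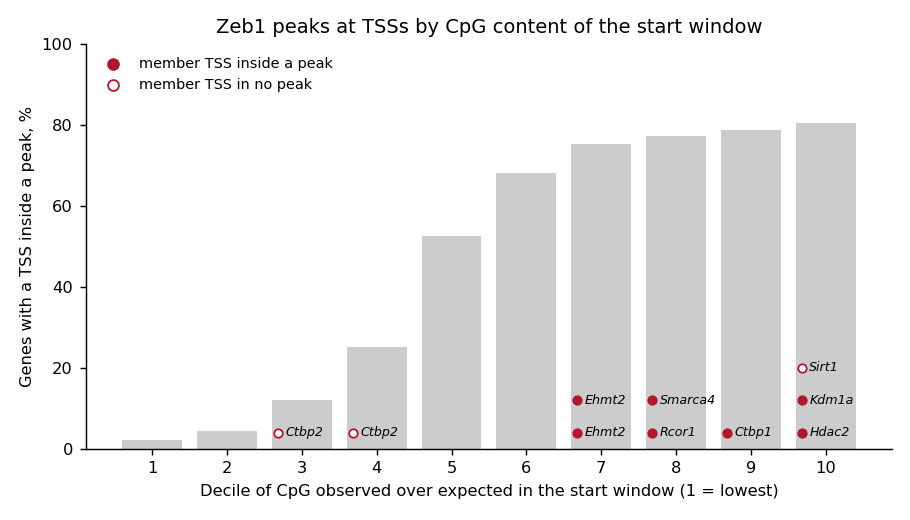
Percent of genes with a TSS inside a Zeb1 peak (y axis) in each decile of genes ordered by observed over expected CpG of the start window (x axis), with the corepressor genes placed in their deciles, filled where that TSS lies in a peak. The percent ran from 2.25 in the lowest decile to 80.5 in the highest, where Sirt1 lies without a peak beside Hdac2 and Kdm1a. The marks of Ctbp2 are for its TSSs without a peak, since the Ctbp2 TSS inside a peak had no start window.

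Other genes of the same complexes were compared by 8 lists with 85 genes in all, of which 62 had a peak within 5 kb of the TSS by the list, against 45.1% of all RefSeq genes, with a median enrichment of 7.15, and 36 lay above the median of all genes. Their starts were mostly CpG-rich, in 65 of the 70 genes with a start window, and of these 65 genes 50 or 76.9% had a TSS inside a peak, near the 77.1% of all genes with a CpG-rich window. Among partners of CoREST, LSD1 and CtBP, 12 of 15 had a TSS peak, from 3.66 at Ehmt1, the methyltransferase that pairs with Ehmt2, to 11.2 at Rcor3. Phf21a and Zmym3 had no assigned peak. In the NuRD complex, a deacetylase complex with a remodelling ATPase, 9 of 12 genes had a TSS peak, from 6.0 at Cdk2ap1 to 15.5 at Mta2, and Mbd3 and Gatad2b had no assigned peak. Of the Sin3 complex 12 of 13 had one, from 4.8 at Brms1 to 11.4 at Ing2, and Sap18 had no assigned peak. All 5 genes of the NCoR and SMRT complex had a TSS peak, from 6.37 at Ncor1 to 10.8 at Tbl1x.

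The next lists hold enzymes. Of 8 other histone deacetylases, 2 had a TSS peak, Hdac7 with 7.8 and Hdac11 with 5.11, and Hdac5, Hdac6, Hdac8, Hdac9 and Hdac10 had no assigned peak. Hdac4 had 3 assigned peaks, and its TSS in the reference lay inside 1 of them, with an enrichment of 4.4, although the list places that peak away from the start. Of 6 other sirtuins, 4 had a TSS peak, from 4.54 at Sirt2 to 6.1 at Sirt6, and Sirt4 had no assigned peak. Sirt5 likewise had its TSS in the reference inside its own peak, with an enrichment of 7.56, above the median of all genes. Of 5 other methyltransferases of lysine 9 of histone H3, 3 had a TSS peak, from 4.4 at Setdb2 to 5.11 at Suv39h2, and Suv39h1 and Setdb1 had no assigned peak. By the distances in the list, none of the 4 sirtuins and none of the 3 methyltransferases lay above that median, and 1 of the 2 deacetylases did. With Hdac1 and Hdac2, 1 of 8 deacetylases and sirtuins with a TSS peak lay above it by the list. By reference TSSs, which add Hdac4, Sirt5, and Hdac3 and Hdac5 with peaks assigned to neighbours, 2 of 12 lay above the median of all genes by the same measure, 6.92, which were Hdac7 and Sirt5.

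Of 21 other SWI/SNF subunits, 15 had a TSS peak, from 5.24 at Smarcd1 to 12.1 at Arid1b, and 11 of these 15 lay above the median of all genes. Another 6 had no assigned peak. As at Hdac3, 3 of these 6 had a TSS inside a peak assigned to a neighbour, which were Pbrm1 with 6.6 (assigned to Gnl3), Brd9 with 6.4 (Trip13) and Bcl7c with 6.87 (Mir762). By TSSs inside a peak, 18 of 21 SWI/SNF genes were covered, against 47.7% of all genes and 77.1% of all genes with a CpG-rich window. These 3 genes, Hdac4 and Sirt5 were named after their values were seen, as were Marcksl1, Hs3st5, Diaph1, Herc4, Ctnna3 and Slc44a4 near the members.

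**Figure D5:**
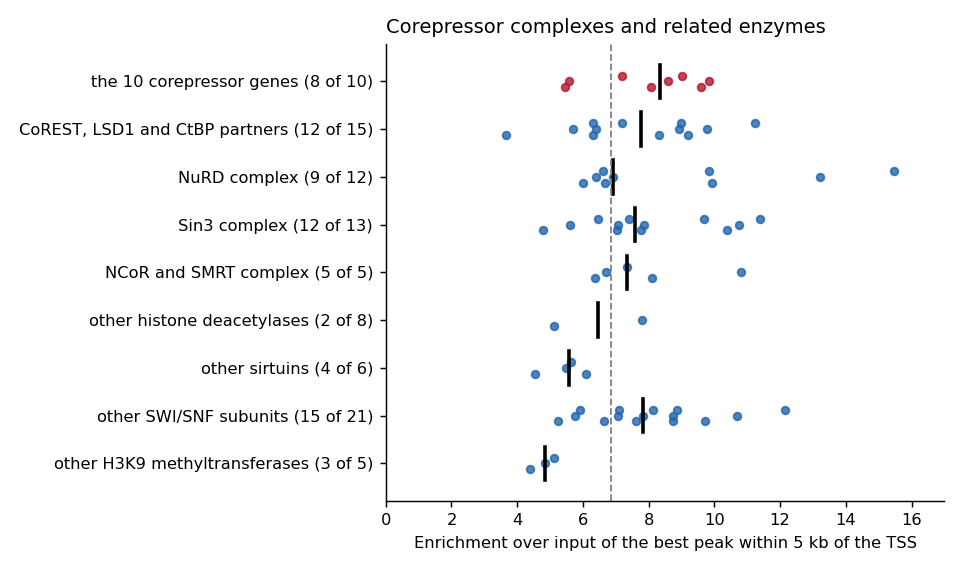
Enrichment over input of the best peak within 5 kb of the TSS (x axis) for each gene of the 10 corepressors and of the 8 related lists (rows, with the number of genes that have such a peak of the number in the list), with a black bar at the median of each row and a dashed line at the median of all genes, 6.84. The points of the 4 sirtuins and 3 methyltransferases with a TSS peak by the list lie left of the dashed line, and Sirt5, covered by its reference TSS alone, is not drawn.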

How the data were processed

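Zeb1 ChIP-seq of 3 libraries and 1 input library was analysed from the unified peak list. The authors trimmed Ion Torrent reads, drew an equal number per sample and used STAR 2.4.2a for alignment to mm10 and Picard 1.136 to remove duplicates. They called broad peaks in each library with PeakRanger, with the input as control, kept peaks found in at least 2 libraries, counted reads again, scaled them to a common depth, averaged the values over samples and annotated peaks with HOMER 4.7. The read columns are a signal, the authors' mean of reads in a peak, as deposited, and the list does not give the number of values behind each mean. The enrichment is a ratio of treatment to input that the authors normalized for mapped reads. The deposited p-value was 0 in every peak and ranked nothing. The deposited distance to the TSS was positive downstream in 98.7% of 16889 peaks that could be compared with the reference, and that sign was used, although the legend states the opposite. The reads left per library after duplicates were removed are not used here, and the reads per peak are means, so no interval of reads is stated.

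Peaks were matched to genes by symbol, and for counts over all genes by the current RefSeq symbol of the transcript named, with 45756 curated transcripts of GRCm38.p6, the same assembly as mm10. The best TSS peak of a gene is the one with the highest enrichment within 5 kb. For CpG content, the start window with the highest observed to expected ratio was kept per gene. The named genes are the 10 members, the highest and lowest of each list, genes without an assigned peak where a list had at most 5, and neighbours at a member's peak. Some items under this rule are not reported here. The members and lists were chosen with earlier results of these data known. Alternatives were other minimum values, merged peaks, other assignments and distances, and other motif settings. The steps were tested on simulated data. Python 3.11.15, pandas 2.3.3, NumPy 2.4.6, pysam 0.24.0 and matplotlib 3.10.9 were used.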

Additional observations from a re-analysis of the deposited data

How the results depend on the processing

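The number of genes with an assigned peak or with a TSS peak was between 7 and 9 under every alternative tried for it, with Hdac1 lost at a minimum of 50 treatment reads and Hdac3 gained with reference TSSs. Of 10 peaks assigned to the genes, 9 lay over a gene or within 5 kb of it. Counting any peak in that range gave 17, which adds 8 assigned to neighbours and drops the distal Hdac2 peak. The 10 assigned peaks fell to 9 at a minimum enrichment of 5 and to 7 with at least 50 treatment reads. The median enrichment of 8.33 became 8.58 with at least 50 treatment reads and 8.09 with gene overlap, with any reference TSS, or with a reference TSS inside the peak, an alternative chosen after seeing the data. The share of all genes with a TSS peak, 45.1% (95% Wilson interval 44.4 to 45.7%), became 37.0% at a minimum enrichment of 5, 25.9% with at least 50 treatment reads, 41.0% within 1 kb, 46.8% within 10 kb, 51.5% with gene overlap or any reference TSS, and 47.7% with a reference TSS inside the peak. TSS peaks with a motif match fell from 8 to 3 on the forward strand alone and to 2 within 200 bp at the peak centre, where less sequence is searched. With CACCTG alone on both strands, 6 held a match. Between 5 and 6 genes lay above the median of all genes in each setting. Leaving out each ChIP library was not run, since the list has no values per library. No paired analysis was possible because the groups share fewer than 2 replicate numbers. Weak peaks, such as the distal ones of Hdac2 and Kdm1a, rest on few reads, and no spread between libraries limits any value.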
